A study of Homo sapiens with 12 samples.

Results

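The effect of CdCl on HK-2 cells after 12 h was measured as the difference between 3 arrays of cells treated with CdCl for 12 h and 3 arrays of their controls at 12 h. These 6 samples were chosen from the 12 of the series by their titles, and the genes by annotation: each of 19775 genes is represented by the probe set, among those annotated with exactly 1 gene symbol, that had the highest mean level. HK-2 cells come from the proximal tubule of a human kidney and were immortalised with papillomavirus genes, whose products disable p53 and RB. Cells were plated in 6-well plates a day before treatment and grown in a medium with EGF, hydrocortisone, insulin, transferrin and selenite. Control cells received the vehicle, and both groups share every other feature the labels give. The sources used here name neither the dose of CdCl nor the vehicle. The other 6 samples are the same treatment and its controls at 48 h, and the wider study exposed this line to several compounds to look for signatures of toxicity. The labels call the 3 samples of a group biological replicates without saying how the cultures were separated. The p-values of limma therefore rest on the spread between arrays within groups, taken over all 12 arrays, those at 48 h included.

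Cadmium is a metal that the kidney accumulates, and the proximal tubule is where most of the damage occurs. In cells it binds thiol groups and takes the place of zinc. Released zinc activates MTF1, which binds metal response elements and switches on metallothioneins, small cysteine-rich proteins that hold cadmium, and the zinc exporter SLC30A1. Modified KEAP1 releases NRF2, the transcription factor of the glutathione, thioredoxin and quinone reductase genes. Misfolded protein in the cytosol activates HSF1 and the heat shock genes, and misfolded protein in the endoplasmic reticulum (ER) activates the unfolded protein response, in which cleaved ATF6 and spliced XBP1 raise ER chaperones. Eukaryotic initiation factor kinases start the integrated stress response, which raises ATF4, CHOP (DDIT3) and ATF3.

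At 12 h genes of each of these pathways rose: HSPA6, an inducible HSP70, by at least 127-fold, the haem oxygenase HMOX1 by 75.7-fold, the metallothionein MT1M by 28.2-fold, DDIT3 by 16.2-fold and the ER chaperone HSPA5 by 3.10-fold. Genes of DNA replication, repair and mitosis fell, ORC1 by 2.07 on the log2 scale and MKI67 by 1.43. Levels are log2 GCRMA signals, so a difference of 1 is a 2-fold change. Of the 19775 genes, 10683 were above a level of 4 on at least 3 of the 12 arrays and were tested, and 9092 lay under that filter. A gene was called where limma, with Benjamini-Hochberg adjustment over the 10683 genes, gave an adjusted p under the threshold of 0.05. By this rule 6029 genes (56.4%) were called. Higher were 1783 genes (16.7%) and lower 4246 (39.7%). These shares are the background for every count below.

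Rises were fewer and larger. Among the called genes, 473 (4.43%) were higher by at least 2-fold and 433 (4.05%) lower by at least 2-fold. At a log2 change of 2 or more there were 135 rises and 12 falls, and at 3 or more 55 rises and 0 falls; at any size limma called 4246 falls. Rises of at least 4 numbered 16, and 5 genes rose by at least 6. All 3 CdCl arrays lay above all 3 controls for 2118 genes (19.8%) and below them for 4974 (46.6%). Over all genes tested the median change was -0.16, the 25th and 75th percentiles were -0.45 and 0.11, and the 5th and 95th percentiles were -0.94 and 0.92.

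**Figure D1:**
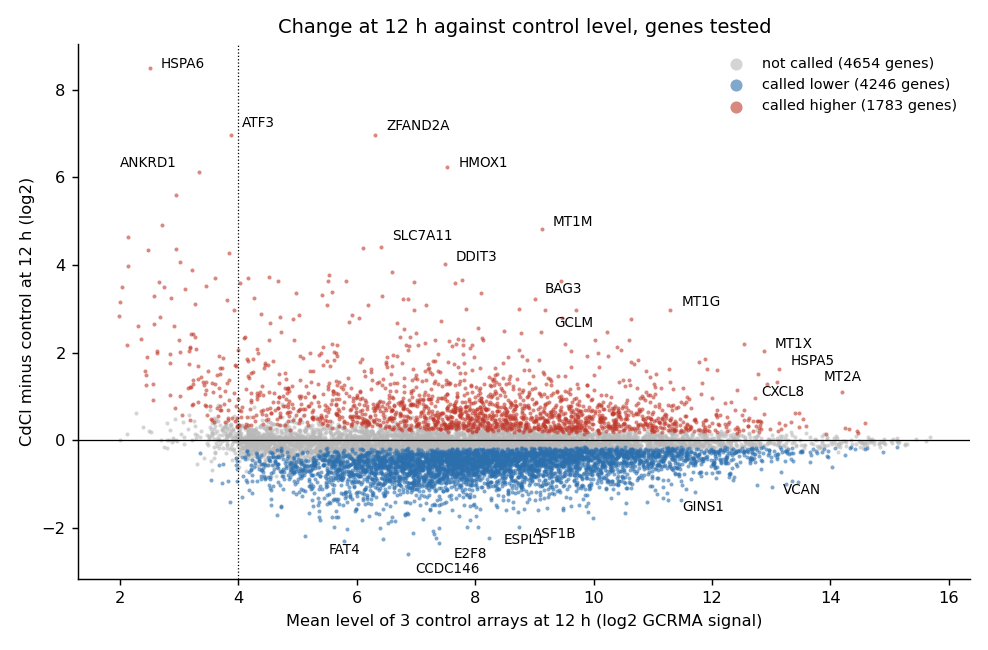
Change at 12 h (CdCl minus control, log2) against the mean level of the 3 control arrays for the 10683 genes tested; each point is a gene, red where called higher (1783), blue where called lower (4246) and grey where not called (4654), and the dotted line marks the level of 4. Rises reach 8.49 while falls end at -2.61, and the falls form a dense band just under 0 at all levels above 4.

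The balance of rises and falls depended on the scaling. With each array centred on its own median, 2607 genes (24.4%) were called higher and 2830 (26.5%) lower, the falls made up 52.1% of calls instead of 70.4%, and the median change was -0.01. With quantile normalization the falls made up 67.5% of calls. Counts by list below are from the values as deposited. The counts after this centring stand beside many of them, and lists shown without them may also have moved. Bacterial poly-A transcripts, which the standard protocol adds to the RNA before labelling, moved the other way from the median: over 15 probe sets their mean level was 5.49 ± 0.09 (SD, n = 3) in controls and 5.86 ± 0.05 (SD, n = 3) in CdCl, higher by 0.37. All 3 CdCl arrays exceeded the controls, and the exact two-sided permutation p was 0.1, the smallest that 3 against 3 can give. The hybridisation controls, added after labelling, differed by 0.01. The part of the spike-ins in the widespread small falls was not tested.

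Arrays of 1 group were close to each other. Their correlations ran from 0.9974 to 0.9982 within groups and from 0.9859 to 0.989 between groups. These correlations were taken without the filter on low values, so signals under a level of 4 entered them. The median SD of 3 arrays was 0.098 for controls and 0.093 for CdCl. Changes below are given with their standard error (SE) from limma. The difference between 3' and 5' probe sets of ACTB, a measure of RNA integrity, was 1.90 in controls and 1.74 in CdCl (exact permutation p = 0.3), and that of GAPDH was 0.13 and -0.02 (exact permutation p = 0.1).

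The label of a proximal tubular cell was checked against markers. Of 26 proximal tubule markers on the array 10 were measured, and the receptors LRP2 and CUBN, the water channel AQP1, the phosphate carrier SLC34A1 and the brush border peptidase ANPEP were among the 16 under the filter. The kidney cadherins CDH6 (12.40 ± 0.09, SD, n = 3, in controls) and CDH16 (7.83 ± 0.16, SD, n = 3), the peptidase DPP4 (10.54 ± 0.13, SD, n = 3) and the scaffold PDZK1 (10.17 ± 0.08, SD, n = 3) were present. Among 13 markers of other nephron segments only AQP2 was measured, near the filter at 4.32, and among 20 markers of podocytes, endothelium, immune and stromal cells 5 were measured, led by the matrix proteoglycan DCN (11.72 ± 0.06, SD, n = 3). The leucocyte gene PTPRC and the endothelial genes PECAM1 and CDH5 lay under the filter. In RNA from whole cultures, fewer cells expressing a gene and less RNA of it per cell cannot be told apart.

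Of the 9 metallothionein genes tested 8 rose, all by at least 2-fold. Their median change was 1.59, against -0.16 for all genes. The promoters of MT2A and MT1X are shown because metal response elements, the binding sites of MTF1, are the textbook route by which metals act on them. The stretches end at the base before the start site, in RefSeq's GRCh38.p14, at chr16:56608404-56608583 (plus strand) and chr16:56682310-56682469 (plus strand). Capitals mark the metal response element core, searched as TGCGCNC or TGCACNC on both strands. MT2A holds 6 matches in its stretch and MT1X 4.
MT2A: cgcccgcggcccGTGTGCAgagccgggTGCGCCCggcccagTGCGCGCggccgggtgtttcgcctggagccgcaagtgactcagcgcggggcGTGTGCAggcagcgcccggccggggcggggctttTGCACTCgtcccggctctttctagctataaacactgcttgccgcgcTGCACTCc
MT1X: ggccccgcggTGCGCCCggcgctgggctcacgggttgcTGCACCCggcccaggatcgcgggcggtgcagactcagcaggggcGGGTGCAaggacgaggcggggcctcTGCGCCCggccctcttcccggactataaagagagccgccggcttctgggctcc

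MT2A, the main metallothionein of most cells, read 14.15, 14.21 and 14.23 on the control arrays and 15.33, 15.30 and 15.29 on the CdCl arrays. The groups did not overlap, and the rise was 1.11 ± 0.06 (SE), or 2.16-fold, with an adjusted p of 9.36e-08 (limma, Benjamini-Hochberg). MT1X lay at 12.95, 12.81 and 12.85 in controls and at 14.92, 14.91 and 14.88 after CdCl, a rise of 2.03 ± 0.07. Both genes were already above 12 on every control array. MT1M started lower and rose most in the family, from 9.06, 9.13 and 9.20 to 13.98, 13.92 and 13.93 (4.82 ± 0.14, SE). The dimmer probe sets of MT1X and MT1F rose more than those used, by 2.69 and 2.28. That of MT1G rose less, by 1.42. Whether the brightest probe sets under-read these rises, and so the ranking within the family, was not tested. MT1G rose by 2.98, MT1F by 2.19 and MT1H by 1.59, and MT1HL1 and MT1E by 1.34 and 1.29. MT3, the brain metallothionein, was at 3.81 in controls and 4.09 in CdCl and was not called. All these probe sets but those of MT1M and MT3 carry the maker's suffix for probes that match several transcripts, so the signals of the single MT1 genes and MT2A cannot be fully told apart.

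Zinc handling changed at a few points. SLC30A1, the plasma membrane zinc exporter, rose from 11.77, 11.79 and 11.77 to 13.49, 13.61 and 13.59, which is 1.78 ± 0.06 (SE) with an adjusted p of 1.34e-09 (limma, Benjamini-Hochberg). No CdCl array came near a control. SLC30A2, a vesicular exporter, rose by 1.92, and SLC39A14, an importer that carries zinc, iron, manganese and cadmium, by 1.25. In the whole list of zinc transporters and MTF1, 5 of 20 rose, 2 fell and 13 were not called, with a median of -0.08. The importer SLC39A8, another known route of cadmium entry, was at 9.72 in controls and 9.61 in CdCl and was not called by limma. Nor was SLC11A2, the divalent metal importer, at 7.91 and 8.01.

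HMOX1, haem oxygenase, which splits haem into biliverdin, iron and carbon monoxide, was at 7.62, 7.63 and 7.33 in controls and at 13.70, 13.78 and 13.84 in CdCl. The groups lay more than 6 log2 units apart, a rise of 6.24 ± 0.08 (SE) or 75.7-fold (adjusted p = 5.86e-13, limma, Benjamini-Hochberg). Around it the haem and iron genes moved little and in both directions: 8 of 25 rose and 10 fell (10 and 8 after centring), with a median of -0.20. FECH, which inserts iron into haem, rose by 0.80. PPOX, the step before it, fell by 1.34, and the iron exporter SLC40A1 fell by 0.89. The ferritin light chain gene FTL rose by 0.25 and the transferrin receptor gene TFRC by 0.28.

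Of 21 genes of the cytosolic HSP70, HSP110 and HSP90 machinery 13 rose, by very different amounts. The HSPA6 promoter is shown because HSPA6 had the largest change of any gene tested and because its stretch holds a heat shock element, the site HSF1 binds as a trimer. It lies at chr1:161524380-161524539 (plus strand), RefSeq GRCh38.p14. Capitals mark the element, searched as 3 alternating units of GAA and TTC with 2 free bases between units; its first base is at -74 from the start.
HSPA6: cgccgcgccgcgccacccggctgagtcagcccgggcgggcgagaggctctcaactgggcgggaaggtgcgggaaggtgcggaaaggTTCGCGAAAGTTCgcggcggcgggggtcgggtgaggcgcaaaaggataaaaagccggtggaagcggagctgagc

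HSPA6 read 2.48, 2.48 and 2.54 in controls, the level of an unexpressed gene, and 11.12, 10.97 and 10.89 in CdCl. With values under 4 set to 4 this is at least 127-fold (adjusted p = 5.86e-13, limma, Benjamini-Hochberg), and the other HSPA6 probe set went from 2.73, 2.66 and 2.87 to 10.01, 10.15 and 9.98. BAG3, the co-chaperone that hands HSP70 clients to autophagy, lay at 8.87, 9.06 and 9.13 in controls and 12.17, 12.29 and 12.28 in CdCl. Its rise was 3.23 ± 0.09 (SE). DNAJB1, the HSP40 partner of inducible HSP70, rose from 9.46, 9.48 and 9.46 to 12.17, 12.27 and 12.34, by 2.79 ± 0.06. In none of these genes did the groups overlap.

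In the HSP70, HSP110 and HSP90 list 4 genes fell, and the median was 0.43. The HSP110 gene HSPH1 rose by 2.29, HSPA1L by 2.36 and the HSP90 co-chaperone CHORDC1 by 1.93, while the constitutive HSP90 genes HSP90AB1 and HSP90AA1 rose by 0.43 and 0.38. FKBP5, an HSP90 co-chaperone that glucocorticoids induce, fell by 1.23, from 11.05, 11.11 and 11.06 to 9.90, 10.07 and 9.55. Among 34 DNAJ genes 11 rose and 9 fell (median 0.03; 16 and 5 after centring), with DNAJC3, DNAJB4 and DNAJB9 at 2.55, 2.48 and 2.45. In the list of BAG proteins, small heat shock proteins and heat shock factors 6 of 13 rose, among them HSPB8 (1.47) and CRYAB (1.19). In the same list 4 fell, HSF1 itself by 0.21, beside a median change of -0.16 for all genes tested. After centring 6 were higher and 1 lower. Of 12 chaperonin and prefoldin subunits, which fold actin and tubulin, 5 rose and none fell, the largest being PFDN2 at 0.86. In mitochondria the co-chaperonin HSPE1 rose by 1.14.

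ZFAND2A, also called AIRAP, an arsenite-inducible AN1 zinc finger protein that binds the proteasome, read 6.71, 6.28 and 5.95 in controls and 13.23, 13.24 and 13.37 in CdCl. The rise was 125-fold (6.97 ± 0.15, SE), and each CdCl array lay over 6 log2 units above each control. The other members of its list moved by less than 1: of 13 AN1 zinc finger and ubiquitin genes 4 rose and 4 fell (5 and 3 after centring), with ZFAND1 at 0.67 and the ubiquitin-activating enzyme UBA1 at -0.70. Among 44 proteasome genes 6 rose and 12 fell (median -0.06), and after centring 14 were higher and 8 lower; the activator PSME4 rose by 1.36, and NFE2L1, the factor that raises proteasome genes when the proteasome is inhibited, fell by 0.78. Autophagy adaptors were divided as well, with 10 of 40 higher and 13 lower (12 and 8 after centring), but 5 of the rises passed 2-fold, led by the ATG8 genes MAP1LC3B (1.79) and GABARAPL1 (1.29) and by SQSTM1, the adaptor p62 (1.28). CTSL, a lysosomal protease, rose by 1.46 and the proton pump subunit ATP6V1C1 by 1.37.

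**Figure D2:**
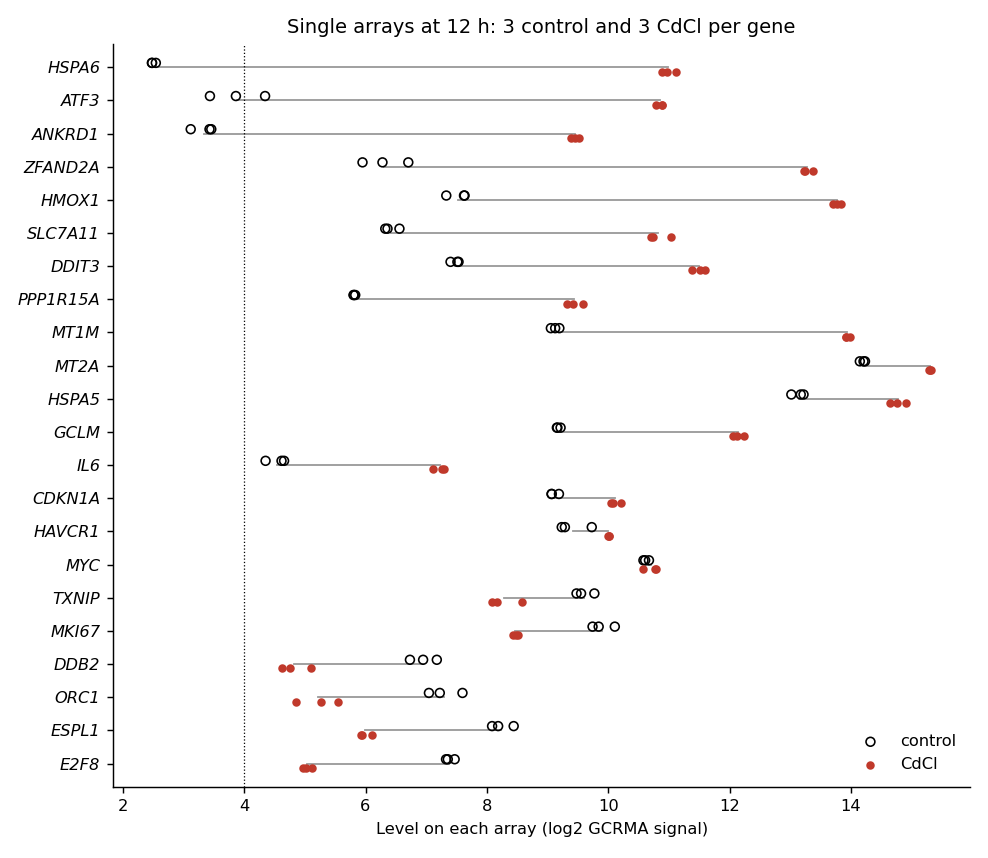
Level on each of the 6 arrays at 12 h (log2 GCRMA signal) for 22 genes; open circles are the 3 controls, red points the 3 CdCl arrays, the grey line joins the group means and the dotted line marks the level of 4. Except for MYC, where the groups overlap (10.62 and 10.71 on average), the 3 CdCl arrays lie on 1 side of the 3 controls.

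Both subunits of the enzyme that starts glutathione synthesis rose, and so did the reductases TXNRD1 and SRXN1, while NRF2 and KEAP1 themselves fell. The GCLM promoter is shown for its antioxidant response element, the site of NRF2 with a small MAF partner. It lies at chr1:93909431-93909550 (minus strand), RefSeq GRCh38.p14. Capitals mark the core, searched as TGACNNNGC on both strands, which starts at -34.
GCLM: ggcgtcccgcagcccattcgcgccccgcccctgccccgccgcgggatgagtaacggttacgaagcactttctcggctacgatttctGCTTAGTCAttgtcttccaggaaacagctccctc

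GCLM, the modifier subunit of the enzyme that starts glutathione synthesis, was at 9.16, 9.15 and 9.22 in controls and at 12.13, 12.06 and 12.24 in CdCl, a rise of 2.96 ± 0.07 (SE; adjusted p = 9.54e-11, limma, Benjamini-Hochberg). Its catalytic partner GCLC rose by 2.34 ± 0.07. SLC7A11, which brings in the cystine that glutathione synthesis needs, rose from 6.56, 6.36 and 6.33 to 10.70, 10.73 and 11.04. That is 21.3-fold, and no CdCl array came within 4 log2 units of a control. Thioredoxin reductase TXNRD1 rose by 2.77 ± 0.07 and sulfiredoxin SRXN1 by 2.15 ± 0.08. Of 30 genes of glutathione synthesis and use, GCLM and GCLC included, 9 were higher and 15 lower (9 and 9 after centring), with a median of -0.22. Of 19 thioredoxin, peroxiredoxin and superoxide enzymes 6 rose and 5 fell (8 and 3 after centring), with a median of -0.06.

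Aldo-keto and quinone reductases, which detoxify aldehydes and quinones, had 10 of 18 members higher and 4 lower, with a median of 0.50. AKR1C1 lay at 8.16, 8.05 and 8.09 in controls and 11.65, 11.64 and 11.08 in CdCl (3.36 ± 0.22, SE), and AKR1C2 rose by 3.65 ± 0.19. Both are read by probes that match several AKR1C transcripts; AKR1C3, whose probe set carries no such mark, rose by 2.28 ± 0.12. AKR1B10 was under 4 on every control array and near 7 after treatment, at least 8.38-fold higher. NQO1 rose by 2.05 ± 0.08. In the regulator list, MAFF, a small MAF, went from 9.43, 9.47 and 9.45 to 13.02, 13.03 and 13.22 (3.64 ± 0.07) and MAFG rose by 1.22, whereas NFE2L2, the gene of NRF2, fell by 0.40 and KEAP1 by 0.80. TXNIP, the thioredoxin inhibitor, fell by 1.33 ± 0.23, from 9.48, 9.77 and 9.55 to 8.17, 8.57 and 8.09. NADPH-making enzymes had 5 of 15 higher and 4 lower, with malic enzyme ME1 at 1.25.

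Among ER chaperones and disulphide isomerases 17 of 30 rose. HSPA5 (BiP, the main ER HSP70) and CRELD2, an ER disulphide isomerase, are shown because their promoters hold the ER stress response element that cleaved ATF6 binds with NF-Y. The stretches lie at chr9:125241344-125241463 (minus strand) and chr22:49918484-49918633 (plus strand), RefSeq GRCh38.p14. Capitals mark the element, searched as CCAAT and CCACG with 9 free bases between them, on both strands.
HSPA5: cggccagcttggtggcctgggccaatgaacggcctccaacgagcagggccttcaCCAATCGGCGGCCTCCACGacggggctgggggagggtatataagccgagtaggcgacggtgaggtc
CRELD2: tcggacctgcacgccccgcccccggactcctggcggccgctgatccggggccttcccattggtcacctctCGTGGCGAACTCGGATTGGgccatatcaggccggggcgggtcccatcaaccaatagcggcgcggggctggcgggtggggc

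This element is rare. It was found in 13 of the 8862 tested genes that have a promoter window (0.147%), and 11 of the 13 were called higher, 1 lower (TMEM120A, -0.27) and 1 not called (TRIM5, 0.29). The 11 were FICD (2.86), which modifies BiP, ERO1B (1.76), CRELD2 (1.66), HSPA5 (1.63), XBP1 (1.29), SERP1 (1.21), HSP90B1 (1.19), ALG12 (0.52), CALR (0.36), EIF2A (0.30) and CANX (0.23). These genes were listed after the match was seen, and a match is not a measured binding site.

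HSPA5 read 13.02, 13.17 and 13.22 in controls and 14.65, 14.75 and 14.90 in CdCl, a rise of 1.63 ± 0.08 (SE; adjusted p = 4.03e-08, limma, Benjamini-Hochberg). A dimmer HSPA5 probe set rose more, by 3.52 ± 0.07. HERPUD1, a component of ER-associated degradation, rose from 10.39, 10.42 and 10.39 to 12.49, 12.54 and 12.58, by 2.13 ± 0.08. Neither gene's groups overlapped. In the list of ER chaperones and isomerases 6 genes fell, 8 of the rises passed 2-fold, and the median was 0.25; SDF2L1, MANF and ERO1B led with 2.23, 2.04 and 1.76. Among 28 sensors and degradation genes 12 rose and 6 fell (median 0.17), including XBP1 (1.29), its nuclease ERN1, also called IRE1 (1.26), and SEL1L (1.27). The kinase gene EIF2AK3, or PERK, rose by 1.13. Coat and translocon genes had 16 of 59 higher, 14 lower and a median of 0.03, and 27 higher and 6 lower after centring; the COPII cargo subunit SEC24A rose by 1.27.

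The integrated stress response was read from 27 genes, of which 15 rose and 4 fell, with a median of 0.36. PPP1R15A (GADD34), which returns the phosphatase to the initiation factor, and MAFF are shown because both carry a whole cyclic AMP response element, TGACGTCA, the site of CREB and ATF factors, close to the start. The stretches lie at chr19:48872301-48872420 (plus strand) and chr22:38201874-38201993 (plus strand), RefSeq GRCh38.p14, with the element in capitals, starting at -58 and -54. MAFF has a second window listed, and the one listed earlier was used. It belongs to the list of NRF2 and its partners, not to these 27 genes. The windows of DDIT3, STC2 and CEBPB, which are among the 27, held no such element. It was in 5.74% of windows of genes higher by at least 2-fold, 4.03% of lower genes and 3.37% of all.
PPP1R15A: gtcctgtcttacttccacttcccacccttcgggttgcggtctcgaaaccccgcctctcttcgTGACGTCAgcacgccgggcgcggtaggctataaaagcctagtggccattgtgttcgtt
MAFF: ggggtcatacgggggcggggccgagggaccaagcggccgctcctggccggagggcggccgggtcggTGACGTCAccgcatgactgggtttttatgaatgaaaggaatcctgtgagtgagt

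ATF3, a stress-induced factor of the ATF family, was at 3.86, 4.34 and 3.44 in controls and 10.79, 10.89 and 10.89 in CdCl. Only 1 control array passed 4, so the fold of 126 (6.98 ± 0.17, SE) rests on control values at the edge of detection; the other ATF3 probe set rose as well, by 5.80 ± 0.10. DDIT3, or CHOP, rose from 7.51, 7.53 and 7.40 to 11.38, 11.51 and 11.60, which is 16.2-fold (adjusted p = 1.51e-11, limma, Benjamini-Hochberg). PPP1R15A went from 5.80, 5.81 and 5.83 to 9.32, 9.43 and 9.59 (3.63 ± 0.07). No CdCl array overlapped a control in any of these genes. STC2, a secreted glycoprotein, rose by 3.58, the pseudokinase TRIB3 by 1.48 and CEBPB, a partner of CHOP, by 1.59. ATF4, which acts mainly through its translation, rose by 0.36, and ATF5 fell by 0.77.

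Amino acid transporters followed, with 10 of 21 higher and 2 lower and a median of 0.19. SLC7A5, the large neutral amino acid transporter, rose by 3.38 ± 0.15 (SE) and its heavy chain SLC3A2 by 1.79 ± 0.08. The enzymes that ATF4 usually raises were uneven. Among 31 aminoacyl-tRNA synthetases 7 rose and 9 fell (median -0.04; 10 and 6 after centring): the glycine enzyme GARS1 rose by 1.03, and the cytosolic valine enzyme VARS1 and the mitochondrial AARS2 and SARS2 fell by 1.02, 0.97 and 0.63. Of 16 serine, one-carbon, asparagine and proline genes 4 rose and 6 fell (5 and 3 after centring); CTH, which makes cysteine from cystathionine, rose by 1.76, asparagine synthetase ASNS by 0.77, and CBS, the step before CTH, fell by 0.85.

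AP-1 factors and ATF3 had 9 of 13 members higher and none lower, with a median of 0.55. JUN rose by 1.91 ± 0.14 (SE), FOSL1 by 2.09 ± 0.22 and the cyclic AMP modulator CREM by 2.54 ± 0.15. Of 30 other immediate early genes 15 rose and 3 fell (median 0.33), with IER5 (2.06) and ID3 (1.85) among the rises. MYC was at 10.62 in controls and 10.71 in CdCl and was not called (adjusted p = 0.364, limma, Benjamini-Hochberg). KLF2 was not called either (-0.01), and KLF6 rose by 0.45. MAP kinase phosphatases, which switch off stress kinases, had 7 of 20 higher and 3 lower (9 and 1 after centring), with DUSP10 at 2.87 and DUSP1 at 2.00.

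Some interleukins rose from near or under the limit of detection. IL11 was under 4 on all control arrays (2.99, 2.93 and 2.89) and at 7.23, 7.22 and 7.45 in CdCl, at least 9.85-fold higher. IL6 rose from 4.66, 4.62 and 4.35 to 7.26, 7.11 and 7.30 (2.68 ± 0.10, SE), and CXCL8, already abundant, from 12.97, 12.66 and 12.69 to 14.21, 14.23 and 14.43 (1.51 ± 0.11). Both kept a clear gap between groups. TNFAIP3, or A20, a feedback inhibitor of NF-kB, rose by 3.09 and CXCL5 by 2.19. CCL2 went the other way, with 6.93, 6.43 and 6.05 in controls and 5.87, 5.77 and 4.02 in CdCl. Its fall of 1.25 ± 0.40 had an adjusted p of 0.0183 (limma, Benjamini-Hochberg), and 0.067 when only the 6 arrays at 12 h entered limma. Without CdCl replicate 3 the change was -0.66, and without control replicate 1 the adjusted p was 0.076 (limma). In all 14 of 26 cytokine, chemokine and feedback genes rose and 4 fell, with a median of 0.39. Interferon-stimulated genes had 3 of 30 higher and 8 lower (5 and 4 after centring); OAS3 fell by 1.27.

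Of 40 genes of hypoxia and glycolysis 25 were higher and 4 lower, 13 rises passed 2-fold, and the median was 0.48. ADM, adrenomedullin, went from 6.81, 6.74 and 7.07 to 10.02, 10.07 and 10.21 (3.23 ± 0.10, SE), and hexokinase HK2 from 7.64, 7.75 and 7.73 to 9.92, 9.94 and 10.20 (2.31 ± 0.08). The groups of both genes were far apart. NDRG1 rose by 2.17, PDK1, which keeps pyruvate out of mitochondria, by 1.97, and the glucose carrier SLC2A1 by 2.44. VEGFA, which ATF4 also drives, rose by 1.31. HIF1A itself and the enzymes TPI1, ENO1, ALDOA and GAPDH were not called.

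**Figure D3:**
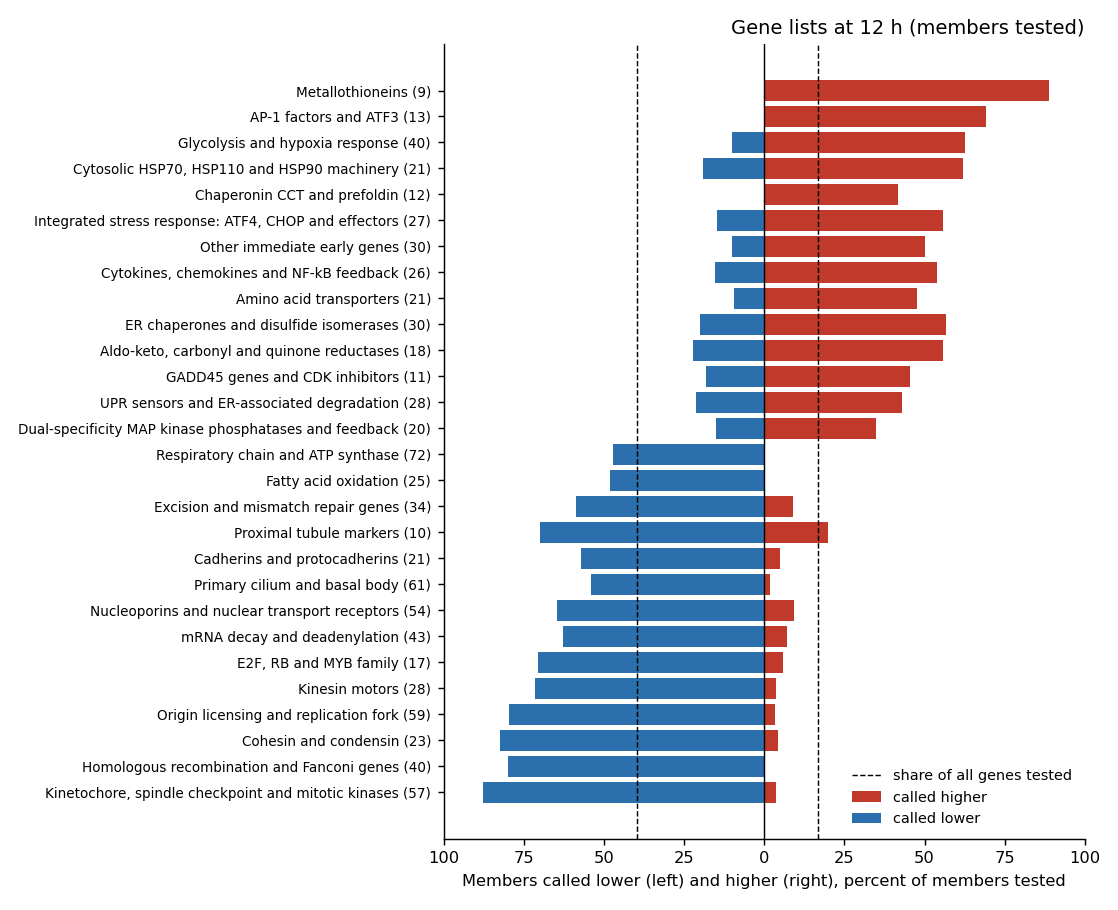
Share of each list's tested members called lower (blue, to the left) and higher (red, to the right) at 12 h, in percent, for the 14 lists with the largest and the 14 with the smallest difference between both shares among lists with at least 9 genes tested (number in brackets). Dashed lines are the shares of all 10683 genes, 39.7% lower and 16.7% higher; the metallothionein, AP-1 and hypoxia lists lie at the top and the replication, cohesin, recombination and kinetochore lists at the bottom.

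Genes of DNA replication and mitosis fell together. The promoters of KIF15, a mitotic kinesin, HMMR, a spindle protein, and E2F1 are shown for their matches. These are E2F sites and cell cycle homology region elements, through which E2F and DREAM complexes can repress genes outside the cell cycle. Among genes lower by at least 2-fold, 6.92% of promoter windows held the first and 15.6% the second. Among all genes the shares were 3.77% and 9.55%. The stretches lie at chr3:44761694-44761793 (plus strand), chr5:163460532-163460631 (plus strand) and chr20:33686386-33686485 (minus strand), RefSeq GRCh38.p14. Capitals mark E2F sites (GCGCCAAA or GCGGGAAA) in KIF15 and E2F1 and the element TTTGAA in KIF15 and HMMR, on either strand; in KIF15 both lie side by side.
KIF15: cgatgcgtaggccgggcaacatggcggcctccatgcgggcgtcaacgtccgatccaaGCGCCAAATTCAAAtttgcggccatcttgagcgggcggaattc
HMMR: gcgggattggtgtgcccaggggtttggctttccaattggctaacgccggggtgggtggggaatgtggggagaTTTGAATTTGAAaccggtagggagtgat
E2F1: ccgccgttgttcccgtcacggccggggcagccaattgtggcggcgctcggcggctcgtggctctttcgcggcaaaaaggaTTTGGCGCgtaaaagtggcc

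KIF15 was at 6.89, 7.04 and 7.29 in controls and 5.51, 5.68 and 5.56 in CdCl, a fall of 1.49 ± 0.11 (SE; adjusted p = 9.25e-07, limma, Benjamini-Hochberg). HMMR fell from 11.20, 11.17 and 11.17 to 9.84, 9.87 and 9.86, and E2F1 from 6.20, 6.03 and 6.18 to 5.15, 5.13 and 4.83. In all 3 genes the groups were apart. E2F8, a repressive E2F that is itself an E2F target, fell most in its family, from 7.47, 7.36 and 7.33 to 5.11, 4.97 and 5.03 (a change of -2.35 ± 0.13). ESPL1, or separase, which cuts cohesin at anaphase, went from 8.19, 8.09 and 8.44 to 5.94, 5.93 and 6.11. ORC1, the origin recognition subunit, fell by 2.07 ± 0.20, and the proliferation marker MKI67 by 1.43 ± 0.15.

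By list, 50 of 57 kinetochore, spindle checkpoint and mitotic kinase genes fell and 2 rose (CENPV and MIS12), with a median of -0.79, which is 0.63 below that of all genes. Of 59 licensing and fork genes 47 fell and 2 rose (median -0.78), with GINS1, POLA2 and POLE at -1.37, -1.73 and -1.26. The rises were CDC6, which loads the MCM helicase, from 8.91, 8.89 and 8.77 to 9.48, 9.61 and 9.83, and RFC5 (0.29). Of 40 recombination and Fanconi genes 32 fell and none rose, with BLM, RAD54L and FANCG at -2.31, -1.85 and -1.59. BLM lay under 4 on 2 of the 3 CdCl arrays. Cohesin and condensin had 19 of 23 lower and kinesins 20 of 28. In the E2F, RB and MYB family 12 of 17 fell, FOXM1 by 1.47 and E2F2 by 1.35, and only E2F7 rose, by 0.93. CDC6, RFC5, E2F7, CENPV and MIS12 were named after their values were seen, as exceptions to their lists. With arrays centred on their medians 43 of the 57 kinetochore genes, 43 of the 59 fork genes and 29 of the 40 recombination genes were still called lower.

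Cyclins and their kinases were less uniform, with 23 of 43 lower and 7 higher. CCNE2, which opens S phase, fell by 1.55, CDC25C by 1.42 and the kinase CDK1 by 1.12, whereas CCNA1 rose by 1.73. Of 11 GADD45 genes and CDK inhibitors, brakes of the cycle, 5 rose, 2 fell and 4 were not called. CDKN1A (p21) went from 9.07, 9.07 and 9.19 to 10.08, 10.04 and 10.21 (1.00 ± 0.08, SE) and GADD45A from 8.72, 8.69 and 8.80 to 11.59, 11.63 and 12.00 (3.00 ± 0.12). GADD45B rose by 1.74 and CDKN2B by 0.82, while CDKN1B (p27) fell by 0.71. In the list of p53 targets 4 of 20 rose and 11 fell, and after centring 5 were higher and 9 lower. Their shares as deposited were 20% and 55%, beside 16.7% and 39.7% of all genes, and the median was -0.31. DDB2, the ultraviolet damage sensor, was at 7.18, 6.73 and 6.95 in controls and 5.10, 4.62 and 4.76 in CdCl (adjusted p = 5.07e-07, limma, Benjamini-Hochberg). RRM2B fell by 1.22 and TP53INP1 by 0.87. Among cell death genes, 9 of 30 higher and 10 lower (12 and 7 after centring), PMAIP1 (NOXA) rose by 2.46, HRK was at least 2.0-fold higher and APAF1 fell by 0.73.

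Histone and chromatin genes were mixed. Of 20 histone genes 8 rose and 6 fell, with 7 rises of at least 2-fold; H2AC6 rose by 1.98, H2BC12 from 9.20, 9.16 and 9.07 to 10.62, 10.87 and 10.60, and the linker histone H1-10 fell by 2.14. Most replication-coupled histone messages end in a stem-loop without a poly-A tail, and arrays primed from the tail read only their tailed forms. Of 94 chromatin enzymes 11 rose and 51 fell (median -0.32; 15 and 36 after centring): HDAC9 rose by 3.63, KDM7A was at least 3.10-fold higher, the DNA methyltransferase DNMT3B rose by 1.56, and SUV39H1, a heterochromatin methyltransferase, fell by 1.56. ASF1B, a histone chaperone of replication, fell by 1.98. Excision and mismatch repair genes had 20 of 34 lower, with UNG at -1.63.

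Kidney features moved in small steps. Of the 10 proximal tubule markers measured 7 fell and 2 rose, with a median of -0.55. CDH16 fell by 1.12, GATM, which makes the creatine precursor, by 0.87, and KHK by 0.81, and the endocytic adaptor DAB2 rose by 0.72. Injury markers showed no common direction, with 8 of 26 higher and 7 lower (11 and 5 after centring). HAVCR1, or KIM1, the standard urinary marker of tubular injury, went from 9.29, 9.73 and 9.23 to 10.01, 9.99 and 10.02 (0.59 ± 0.12, SE; adjusted p = 0.00151, limma, Benjamini-Hochberg), with a narrow gap between groups. ANXA1 rose by 1.62 and CD44 by 0.96, and LCN2, or NGAL, lay under 4 on all 6 arrays. Among tubular transporters 7 of 34 rose and 13 fell (13 and 11 after centring); the osmolyte carriers SLC6A13 and SLC6A12 fell by 1.21 and 1.20. ABCC2, an apical export pump, was under 4 in all controls and at least 2.88-fold higher.

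Genes of shape and matrix gave some of the larger single changes. Of 10 mesenchymal transition factors and markers 5 rose and 4 fell, with a median of 0.08. The factors SNAI2 and SNAI1 were under 4 in all controls and at least 3.10-fold and 1.73-fold higher, ZEB1 rose by 1.26 and ZEB2 by 2.34. MMP10, stromelysin 2, was at 2.45, 2.50 and 2.46 in controls and 6.48, 6.90 and 7.05 in CdCl, at least 7.02-fold higher, and MMP1 rose by 2.29. Both groups of MMP10 were tight and far apart. COL12A1 rose by 3.09, while the basement membrane collagens COL4A4 and COL4A3 fell by 1.50 and 1.46 and the tight junction protein CGN by 1.46. Of 21 cadherins and protocadherins 12 fell and 1 rose, and FAT4 fell from 6.47, 6.61 and 6.26 to 4.83, 4.10 and 3.62. Among matrix genes overall 9 of 51 integrins, collagens and laminins rose and 22 fell.

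Signalling lists were mixed, although some secreted factors were among the 25 largest rises. Of 32 TGF-beta, BMP and activin genes 6 rose and 11 fell (11 and 9 after centring), of 29 WNT and Notch genes 3 rose and 9 fell, and of 20 EGF receptor ligands and receptors 5 rose and 6 fell (8 and 4 after centring). INHBA, the activin subunit, went from 5.62, 5.41 and 5.56 to 9.16, 9.30 and 9.44 (3.77 ± 0.14, SE), and GREM1, a BMP antagonist, rose by 3.60 and the WNT amplifier RSPO3 by 3.63. DKK1, a WNT inhibitor, was at least 2.80-fold higher. HBEGF and EREG, ligands of the EGF receptor, rose by 2.06 and 1.39, whereas the receptors ERBB2 and FGFR2 fell by 1.57 and 1.29. FZD2, a WNT receptor, fell by 1.36 and TGFBR2 by 0.99. ANKRD1, a nuclear repeat protein that YAP and stress induce, was at 3.12, 3.46 and 3.43 in controls and 9.46, 9.52 and 9.39 in CdCl, at least 44.0-fold higher. In its list of YAP and TEAD targets 5 of 20 rose and 7 fell (6 and 4 after centring), with a median of -0.11.

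In 7 genes all 3 controls lay under 4 and all 3 CdCl arrays above 7, and no gene did the reverse. They were HSPA6, ANKRD1, IL11, CLIP4, a linker of microtubule ends (at least 23.2-fold), the homeobox gene DLX2 (at least 12.3-fold), the G protein regulator RGS4 (at least 8.59-fold) and the antisense RNA gene NR2F1-AS1 (at least 9.84-fold). SPINK1, a trypsin inhibitor, started at the same edge, at 3.45, 4.07 and 3.98, and reached 8.11, 8.18 and 8.08. ELL2, an RNA polymerase II elongation factor, rose from 6.01, 6.30 and 6.00 to 10.31, 10.24 and 10.93 (4.39 ± 0.19, SE). No other gene of the polymerase II and Mediator list rose by 2-fold, and 37 of its 73 members fell, POLR2A, the catalytic subunit, by 1.18 and MED16 by 1.27. After centring 14 of the 73 were higher and 23 lower. CCDC146, a centriole protein, had the largest fall of any gene tested, from 7.10, 6.91 and 6.57 to 4.04, 4.40 and 4.31 (adjusted p = 5.59e-07, limma, Benjamini-Hochberg), and FAM111A-DT, the divergent transcript of FAM111A, fell by 2.23; FAM111A itself, a protease that works at replication forks, fell by 1.77.

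Genes of respiration and translation moved by small amounts, and their counts depended on the scaling. Of 72 respiratory chain and ATP synthase genes none rose and 34 fell, but none by 2-fold, and the median of -0.18 was close to the -0.16 of all genes; after centring 8 were lower. SDHA, the succinate dehydrogenase flavoprotein, fell by 0.69. Of 60 cytosolic ribosomal proteins 8 fell and 1 rose, with a median of -0.06, and after centring 3 were lower and 6 higher. Among those 8 were RPL39L, which fell by 0.68, and RPS27L, a p53 target, which fell by 0.47. Mitochondrial ribosomal proteins had 39 of 74 lower (16 after centring), and MRPL18, which also has a cytosolic form made under heat shock, rose by 1.06. Nucleoporins and transport receptors had 35 of 54 lower (median -0.28), mRNA decay factors 27 of 43 and primary cilium genes 33 of 61; after centring the counts were 20, 16 and 23. Fatty acid oxidation had 12 of 25 lower and none higher (4 and 2 after centring), with CPT2 at -0.60.

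Zinc finger genes of the ZNF series were the largest family, with 330 tested. Of these 59 rose (17.9%) and 77 fell (23.3%), and the median was -0.04; after centring 94 were higher and 47 lower. ZNF77 rose from 4.92 on average to 7.68, ZNF555 by 2.18 and ZNF165 by 1.76. Long non-coding RNA genes had 29 of 233 higher and 70 lower (50 and 46 after centring); LINC00304 was at least 6.84-fold and UBE2D3-AS1 at least 5.20-fold higher, and whether these probe sets also read overlapping genes was not tested. In the clock, BMAL1 rose by 1.29 and CRY1 by 0.89, and HLF, a clock-driven factor, fell by 1.14.

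Abundant genes moved as often as others. Of 1079 genes with a control mean above 11, 586 were called, 183 higher and 403 lower. Beside the metallothioneins, SLC30A1, HSPA5 and CXCL8, the larger rises were in SAT1, the rate-limiting enzyme of polyamine breakdown (1.86), NAMPT, which recycles nicotinamide (1.62), and ANXA1 (1.62). POGLUT2, PREPL and VCAN, a matrix proteoglycan, fell by 1.36, 1.19 and 1.06. Among the 277 genes with a control mean up to 4, which passed the filter only through other arrays, 116 were higher and 12 lower; those had to differ or to be read at 48 h, so the count carries no weight. In the bins above 4 the share called lower was 24.5% at 4 to 6, 46% at 6 to 8, 45.8% at 8 to 10, 42% at 10 to 12 and 35.3% above 12.

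Promoters of the genes that changed by at least 2-fold were compared with all 8862 by the letters they hold in a window from 250 bases before to 50 after the RefSeq start. Windows were available for 383 of the 473 genes higher by at least 2-fold and for 347 of the 433 lower. A TATA box (TATAAA) was in 15.7% of windows of higher genes, 4.03% of lower genes and 5.24% of all. An AP-1 site (TGANTCA) was in 8.62%, 2.02% and 4.37%, and the cyclic AMP response element in 5.74%, 4.03% and 3.37%. The composite element of CHOP and ATF4 (TGATGNAA) was in 3.39%, 1.44% and 1.7%. For the ER stress response element the shares were 1.83% (7 windows) and 0% against 0.147% (13 windows). For the heat shock element they were 1.04% (4 windows) and 0% against 0.316% (28 windows). These counts are small.

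In the other direction, E2F sites were in 6.92% of windows of lower genes, 1.31% of higher genes and 3.77% of all, and the cell cycle homology region element in 15.6%, 9.66% and 9.55%. The antioxidant response element core was in 18.3% of higher, 11.8% of lower and 15.6% of all windows, and the metal response element core in 38.9%, 43.2% and 39.5%, so the shares of these short cores differed less between groups than those of the TATA box. A CCAAT box, which the ER stress response element contains, was in 45.4%, 41.2% and 37.4%. An AP-1 site can overlap an antioxidant response element core, as in HSPA6. Of the 28 genes with a heat shock element 10 were called higher, 5 lower and 13 not called; beside HSPA6 the higher ones included CHORDC1 with 3 matches (1.93), FAM149A (2.02), DNAJA1 (1.31) and DNAJB6 (0.86), picked after their values were seen. Genes with several windows (2604) were represented by the one listed earliest, and a match is a description of letters, not of binding.

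**Figure D4:**
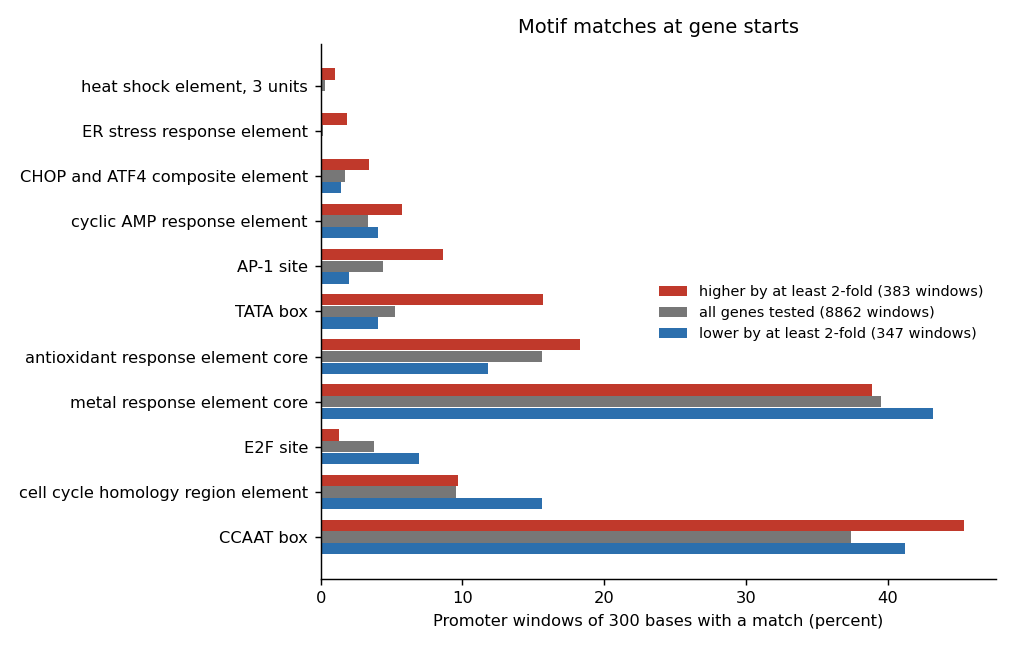
Share of 300-base promoter windows with at least 1 match to each motif (percent, no test) for genes higher by at least 2-fold (red, 383 windows), all genes tested (grey, 8862) and genes lower by at least 2-fold (blue, 347). The TATA box share is 15.7% for the higher genes against 5.24% for all, and the E2F share 6.92% for the lower genes against 3.77%.

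Separate probe sets of a gene were used as a second reading of the same arrays. Of 5012 genes with more than 1 probe set tested, all were called higher in 602 and lower in 737, none was called in 1265, and in 2239 some were called and others not. In 169 genes probe sets were called in opposite directions, in 3 of them by at least 2-fold each way. KALRN, a gene with many isoforms, is an example: its brightest probe set rose by 1.30 and others fell by 1.43 and 1.21. TAF9B, a TFIID subunit, fell by 1.01 in its brightest probe set and rose by 1.52 in another, and MBNL1, a splicing factor, was read between -1.69 and 1.40. Among the 376 genes called by at least 2-fold that had another probe set, 481 of 571 other probe sets were called the same way, 84 were not called and 6 were called the other way.

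The 12 h effect differed from the effect at 48 h in 16 of 24 genes chosen as an index of these pathways (interaction contrast in the same limma fit, Benjamini-Hochberg over the 10683 genes), and in 10 of the 16 it was smaller at 48 h in the same direction. For several the controls differed between the times. ATF3 was at 3.88 in controls at 12 h and 9.17 at 48 h, DDIT3 at 7.48 and 12.73, SLC7A11 at 6.42 and 10.51, and ZFAND2A at 6.31 and 9.23, while their CdCl levels moved less (ATF3 10.86 and 11.13, DDIT3 11.50 and 12.93). For HSPA6 the controls were at 2.50 and 2.48, and the CdCl level fell from 10.99 to 7.24. HMOX1 rose by 6.24 at 12 h and 6.34 at 48 h, and the interaction was not called (adjusted p = 0.537, limma). MT1M rose by 4.82 and 6.49, with controls at 9.13 and 7.64. HAVCR1 turned from a rise of 0.59 to a change of -1.03.

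**Figure D5:**
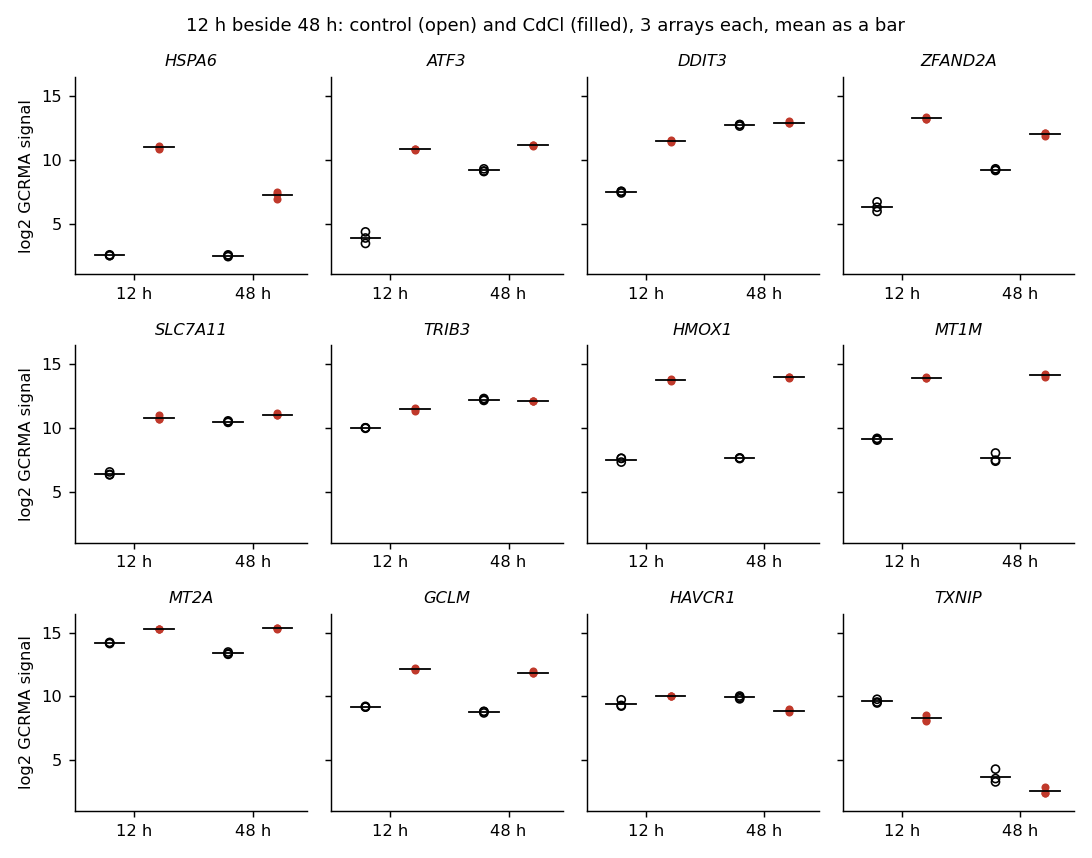
Levels of 12 genes (log2 GCRMA signal) on single arrays at 12 h and 48 h; open circles are controls, filled points CdCl, 3 arrays each, and bars are means. At 48 h the controls of DDIT3, SLC7A11 and TRIB3 lie close to the treated arrays (DDIT3 12.73 and 12.93 on average), those of HMOX1 and MT1M far below them (7.64 and 13.98, 7.64 and 14.14), and HAVCR1 lies above its control at 12 h and below it at 48 h.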

How the data were processed

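Total RNA of HK-2 cells was labelled by the Affymetrix standard protocol and hybridised to arrays, 3 per group, per the labels. The authors deposited log2 values made with GCRMA, per the submitters' processing notes, which give no version; GCRMA subtracts background by probe sequence and quantile-normalizes arrays together, so a shift shared by most genes is not measured. Of 54675 probe sets, 41091 have 1 symbol in the platform annotation, 1801 have several, 11721 have none and 62 are controls; 41037 matched RefSeq by gene ID. The 12 arrays were fitted in limma 3.58.1 (R 4.3.3) as 4 group means with empirical Bayes variances, without a replicate block, and Benjamini-Hochberg adjustment over 10683 genes above 4 on at least 3 of 12 arrays. A gene whose group lay under 4 on all 3 arrays has a fold against 4, written as "at least". The procedure was tested on simulated data. Alternatives were scaling, filter, probe set rule, variance prior, arrays fitted, a replicate block and leaving out each array.

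The comparison, its members and the gene lists were chosen with earlier results of these data known. Genes were named by rule: the 25 largest rises and 25 largest falls with groups apart, up to 4 per list, the 10 largest changes each way among genes with a control mean above 11, genes under 4 in controls and above 7 in CdCl, up to 8 genes with opposed probe sets, and 24 index genes. Cell type markers, the genes with rare promoter motifs and other genes outside the rule, such as ATF4, CDC6, KEAP1 and NQO1, were picked after their values were seen. Promoter windows and start sites are those of RefSeq on GRCh38.p14, read with Python 3.11.15. The check of replicate numbers, the correlation of deviations from the group means, gave -0.062, -0.003 and -0.029 for the 3 same-numbered pairs at 12 h, so numbers were not taken as pairs.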

Additional observations from a re-analysis of the deposited data

Results flagged for a closer look

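Between 12 h and 48 h the effect of CdCl differed, by the interaction contrast in limma with Benjamini-Hochberg adjustment, in the following genes, given as the effect at 48 h minus that at 12 h on the log2 scale. Among stress response genes the differences were -5.01 for ATF3, -3.81 for DDIT3, -1.62 for TRIB3 and -0.99 for GADD45A. Chaperone and proteotoxic genes gave -4.13 for ZFAND2A, -3.73 for HSPA6, -1.47 for HSPA5 and -1.27 for BAG3. The cystine carrier SLC7A11 differed by -3.86, IL6 by -0.54 and MYC by -0.38, and the injury marker HAVCR1 by -1.62, with a sign change between times. The metal response genes MT1M, MT2A and SLC30A1 differed by 1.68, 0.85 and 0.26, and DDB2, which fell at both times, by 1.69. MT2A lay between 15.29 and 15.36 on the CdCl arrays of both times. Its controls were at 14.15 to 14.23 at 12 h and at 13.30 to 13.48 at 48 h. The controls of both times are separate arrays.

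Signals outside the genes with 1 symbol were also present. The poly-A spike-ins were 0.37 higher in CdCl than in controls at 12 h. Among 938 tested probe sets with several symbols 46 were higher by at least 2-fold, and among 1773 with no symbol 86 were; these are not named here. With groups of 3 arrays, single outlying arrays were not tested for.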

How the results depend on the processing

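With each array centred on its median, 2830 genes were lower, 242 of them by at least 2-fold, and the median change was -0.01. Without a filter on low values the median was -0.02. With the mean of a gene's probe sets 232 genes were lower by at least 2-fold, the median was -0.11, and TAF9B, MBTPS2 and CDC23 changed sign, to 0.19, 0.01 and 0.23; their probe sets disagree. With every probe set by itself 3801 were higher, 1078 of them by at least 2-fold, over 19005 tested, and the median was -0.10. Leaving out 1 array at a time gave 1601 to 1723 genes higher, 3741 to 4020 lower, 439 to 502 higher and 375 to 505 lower by at least 2-fold, and medians from -0.17 to -0.15. With the replicate block 1727 genes were higher and 4110 lower, and no named gene changed its call. Of the 365 named genes 361 were called, 350 of them under every one of the 14 settings in which they were tested. Most named genes were picked for large changes in these data, so their stability was largely set in advance and says little about other calls. Of all 4246 lower calls, centring kept 66.7% and the mean of probe sets 78.7%. Of the 1783 higher calls the same settings kept 100% and 86.2%. The other settings kept 86.8% to 97.8% of the lower calls. The filter at 6 left 334 of the named genes in the test and the mean of probe sets 348. After centring RPL35A and MBNL1 were no longer called; CCL2 was lost with the 6 arrays at 12 h alone, without the filter and without control replicate 1, and ACTA2 in 3 of the leave-one-out fits. The number of arrays limits the precision.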

Other observations

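Developmental and nuclear regulators held further changes at 12 h that belong to none of the pathways above, all with limma and Benjamini-Hochberg adjustment. Of 22 kidney identity and homeobox factors 7 rose and 7 fell (7 and 6 after centring arrays on their medians); beside DLX2, the adipogenic receptor PPARG rose by 1.97 and the homeobox gene MSX1 by 1.73, and IRX5 fell by 1.42. Of 13 HOX cluster genes 6 fell (46.2%, beside 39.7% of all genes) and none rose. After centring 4 were lower and 1 higher. HOXB7 fell by 1.06. KLF7 rose by 1.92 and KLF12 fell by 1.03 among 13 KLF genes, 4 higher and 4 lower (6 and 4 after centring). SOCS and STAT genes had 6 of 18 higher, STAT4 by 1.43 and SOCS3, the feedback inhibitor of IL6 signalling, by 0.86, and 7 lower, the kinase TYK2 by 0.92; after centring 6 were higher and 4 lower.

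Among enzymes of ubiquitin removal 11 of 51 rose and 14 fell (15 and 8 after centring), with USP53 at 2.29 and OTUB2 at 1.94. Sterol and fatty acid genes had 6 of 29 higher and 15 lower (6 and 8 after centring): the sterol carrier STARD4 and INSIG2, which retains SREBP in the ER, rose by 1.28 and 1.20, and SREBF1 fell by 0.85. In RNA polymerase I and III and ribosome biogenesis 10 of 61 rose and 14 fell (19 and 4 after centring), POLR3G being 1.41 higher; UBTF fell by 0.97. Of 31 Eph and guidance genes 7 rose and 14 fell; SLIT2 rose by 2.00, and SEMA4A and EFNA2 fell by 1.45 and 1.42. The regulators RGS2 and RGS20 rose by 1.79 and 1.56. Of 57 splicing regulators 8 rose, the kinase CLK1 by 0.93, and 26 fell, the cold-inducible CIRBP by 0.94 (12 and 17 after centring).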
